A study of Mus musculus with 24 samples.

Results

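The 33 genes described here make, move and store cholesterol and fatty acids, and were chosen by name as members of sterol and fatty acid synthesis, uptake and efflux. A gene was measured where a probe set of the array (a group of probes read as 1 value) carried that gene as its only symbol. Where several did, the probe set with the highest mean over all arrays stood for the gene. By this rule 31 of the 33 genes were measured, among 19938 genes in all, and Acat2 and Soat1 had no such probe set, so their expression was not analysed here. All 31 passed the filter on dim signals (above the array's median on at least 3 of 24 arrays), which left 11365 genes for testing. Lss and Tm7sf2 passed with 6 arrays, Abca1 with 4, Nr1h3 with 13, Stard4 with 17, Dhcr7 with 22, Fdps and Scd1 with 23, and the other members with 24.

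Conventional dendritic cells (cDC), the antigen-presenting cells that prime T cells, were sorted from collagenase-treated spleens of female mice aged 8 to 10 weeks. The mice were NOD/ShiLt, inbred animals prone to autoimmune diabetes, or the control strain C57BL/6 (B6). They received CpG-A, a DNA oligonucleotide that activates the receptor TLR9 and induces type I interferon, or PBS, and the cells were taken 12 hours later. Each sort took CD11c+ cells that were CD8+ or CD11b+. The 8 groups of 3 arrays each were CD8+ cDC of NOD mice after CpG and after PBS, CD8+ cDC of B6 mice after CpG and after PBS, and the same 4 groups of CD11b+ cDC. The labels do not say whether the 3 arrays of a group came from separate mice or from pools, so a p-value here weighs a difference against the scatter of the 3 arrays, part or all of which may come from the assay. The values are log2 expression levels, on which a difference of 1 is a doubling, and differences are given with their standard error (SE).

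Cells build cholesterol from acetyl-CoA through the mevalonate pathway, which runs through HMG-CoA to farnesyl pyrophosphate, and then through squalene and lanosterol. The pathway is run by SREBP transcription factors, which the escort protein SCAP carries out of the endoplasmic reticulum when sterols are low and which INSIG proteins hold back when sterols are high. Excess sterol is sensed as oxysterol by the liver X receptors (LXR), which raise the efflux pumps Abca1 and Abcg1, and lysosomal cholesterol is released by Npc1 and Npc2. In macrophages, type I interferon is known to lower sterol synthesis, and a gene it induces there makes the oxysterol 25-hydroxycholesterol.

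Promoter windows of 300 bases, 250 before and 50 after an annotated start of the gene, were available from RefSeq (GRCm38.p6) for 25 of the 33 genes. Those of 4 genes are shown because their genes carry the main results below. Hmgcs1 and Idi1 rose in CD8+ cDC, Fasn fell 3.01-fold in CD8+ cDC of B6 mice, and Npc2 rose in all 4 CpG comparisons. Capitals mark the sterol regulatory element TCACNCCAC (an SREBP site) and the inverted CCAAT box ATTGG, each searched on both strands, and the rest is in lower case. The windows are chr13:119690101-119690400 on the plus strand for Hmgcs1, chr13:8885356-8885655 on the plus strand for Idi1, chr11:120824498-120824797 on the minus strand for Fasn and chr12:84773063-84773362 on the minus strand for Npc2. That of Fasn lies within the gene span given below, at a start inside it.
Hmgcs1: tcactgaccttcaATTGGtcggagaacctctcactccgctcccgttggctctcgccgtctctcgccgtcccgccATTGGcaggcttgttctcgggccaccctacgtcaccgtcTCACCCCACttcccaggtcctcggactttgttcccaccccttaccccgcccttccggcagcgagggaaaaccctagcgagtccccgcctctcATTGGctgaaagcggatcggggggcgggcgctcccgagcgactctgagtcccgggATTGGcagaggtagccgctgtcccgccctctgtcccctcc
Idi1: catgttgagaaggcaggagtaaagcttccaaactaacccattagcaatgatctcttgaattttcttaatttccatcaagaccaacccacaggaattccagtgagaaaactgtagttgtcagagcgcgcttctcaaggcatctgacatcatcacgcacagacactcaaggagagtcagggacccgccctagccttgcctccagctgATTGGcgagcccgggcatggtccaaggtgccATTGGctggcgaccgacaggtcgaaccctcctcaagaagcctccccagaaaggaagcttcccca
Fasn: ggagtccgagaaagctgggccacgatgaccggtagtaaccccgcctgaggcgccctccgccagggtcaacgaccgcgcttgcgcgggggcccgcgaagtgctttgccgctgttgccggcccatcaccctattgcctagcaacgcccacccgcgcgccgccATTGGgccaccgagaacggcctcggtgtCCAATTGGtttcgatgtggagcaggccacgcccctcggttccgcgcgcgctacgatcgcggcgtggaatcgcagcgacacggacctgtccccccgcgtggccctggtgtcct
Npc2: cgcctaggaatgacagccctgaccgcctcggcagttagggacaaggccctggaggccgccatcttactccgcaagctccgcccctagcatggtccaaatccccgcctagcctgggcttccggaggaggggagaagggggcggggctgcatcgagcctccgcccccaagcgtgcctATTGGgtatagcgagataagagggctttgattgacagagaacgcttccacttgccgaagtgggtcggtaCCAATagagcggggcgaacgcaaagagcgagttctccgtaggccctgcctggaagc
The sterol regulatory element stood in the Hmgcs1 window at bases 114 to 122, and in no other of the 25 genes' windows. It was present in 1.44% of the 27025 genes with a window. The inverted CCAAT box stood in the windows of 20 of the 25 genes, against 41.1% of all genes. The DR4 element, the repeat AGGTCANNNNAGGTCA that LXR binds, was in 0 of the 25 and in 0.0148% of all genes. These are matches of letters within these windows only.

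As a check of the groups, all 7 measured interferon-stimulated genes were higher after CpG in each of the 4 comparisons, with median differences between 3.50 and 4.28. All 5 cDC1 markers were higher and all 5 cDC2 markers lower in CD8+ than in CD11b+ cDC of both strains after PBS, as the sort labels say. The mean level of each list was lower after CpG in its own population, but not every marker was. Cd8a in CD8+ cDC averaged 11.52 after CpG and 11.43 after PBS in B6 mice, and 11.37 and 11.06 in NOD mice. Cd4 in CD11b+ cDC averaged 9.67 after CpG and 9.49 after PBS in NOD mice. The other markers, and Cd4 in B6 mice, were lower after CpG in their own population. The mean cDC1 level in CD8+ cDC was 8.90 to 9.44 after CpG and 10.52 to 10.67 after PBS in B6 mice. It was 9.38 to 10.45 and 10.75 to 10.85 in NOD mice. The mean cDC2 level in CD11b+ cDC was 7.56 to 7.92 and 9.68 to 9.69 in B6 mice, and 8.47 to 8.78 and 9.65 to 9.94 in NOD mice. The arrays correlated with the others of their group at 0.951 to 0.988, lowest in CD8+ cDC of NOD mice after CpG, where replicate 1 stood apart at 0.951. Natural killer (NK) cell markers differed between the CD11b+ groups. The mean level of 6 NK genes was 9.51 to 10.6 in CD11b+ cDC of B6 mice after CpG and 6.09 to 7.0 after PBS. It was 6.17 to 6.45 after CpG and 4.68 to 4.96 after PBS in CD11b+ cDC of NOD mice. The mean of 12 red pulp macrophage genes rose with CpG without overlap in NOD mice. It was 7.79 to 7.84 after CpG and 7.02 to 7.16 after PBS in CD11b+ cDC, and 7.14 to 7.54 and 6.38 to 6.75 in CD8+ cDC. Its B6 ranges overlapped. The mean of 9 proliferation genes fell with CpG without overlap in B6 mice. Its group means went from 7.22 to 6.50 in CD8+ and from 7.62 to 7.26 in CD11b+ cDC. Its NOD ranges overlapped. In such bulk samples, fewer cells of a type and less RNA per cell cannot be told apart. The part of the NK, macrophage and proliferation signals in the results below was not tested.

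CpG changed the lipid genes of all 4 cell populations, and in 3 of the 4 the share that changed was within 10 percentage points of that over all genes. The test was limma's moderated test in a fit of all 24 arrays, two-sided, with Benjamini-Hochberg adjustment over the 11365 genes and a threshold of 0.05. In CD8+ cDC of NOD mice 4 members rose and 10 fell (45.2% of 31). Of all genes, 40.3% were called there, 15% higher and 25.3% lower. In CD8+ cDC of B6 mice 6 rose and 13 fell (61.3%), against 57.2% of all genes, 21% higher and 36.2% lower. In CD11b+ cDC of NOD mice 3 rose and 4 fell (22.6%), against 15.3% of all genes, 9.58% higher and 5.69% lower. In CD11b+ cDC of B6 mice 6 rose and 17 fell (74.2%), against 38.6% of all genes, 15.7% higher and 22.9% lower. Of the 4, this was the comparison in which the share of members called lay furthest above that of all genes. The median difference over the 31 members there was -0.47, against -0.07 over all genes tested. It was -0.18 against -0.09 in CD8+ cDC of B6 mice, -0.02 against -0.08 in CD8+ cDC of NOD mice and -0.09 against -0.04 in CD11b+ cDC of NOD mice.

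Npc2 was higher in all 4 CpG comparisons, Scd2 and Stard4 were lower in all 4, and Abca1, Mvd, Mvk, Scd1 and Tm7sf2 passed in none. The splits depend on where each array is centred. Centring each array on its median over the tested genes, a setting added after seeing the data, moved the median difference of all genes by 0.25 in CD8+ cDC of B6 mice, where 9 members were then called higher and 9 lower (4080 and 2784 of all genes, against 2382 and 4117 as deposited). It moved it by 0.15 in CD8+ cDC of NOD mice, where 7 members were higher and 7 lower (2403 and 1886 of all genes, against 1705 and 2873), and by 0.12 in CD11b+ cDC of B6 mice, where 6 were higher and 14 lower (2295 and 1932 of all genes, against 1786 and 2597). Centring on the median over all probe sets gave 1116 genes higher and 390 lower in CD11b+ cDC of NOD mice, against 1089 and 647 as deposited, with 3 members on each side. No called member changed sign under any setting tried. Without replicate 1 of CD8+ cDC of NOD mice after CpG, the lower calls of Fasn, Srebf1, Srebf2 and Stard4 ended in that comparison. Their adjusted p were then 0.0831, 0.151, 0.103 and 0.0621.

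**Figure D1:**
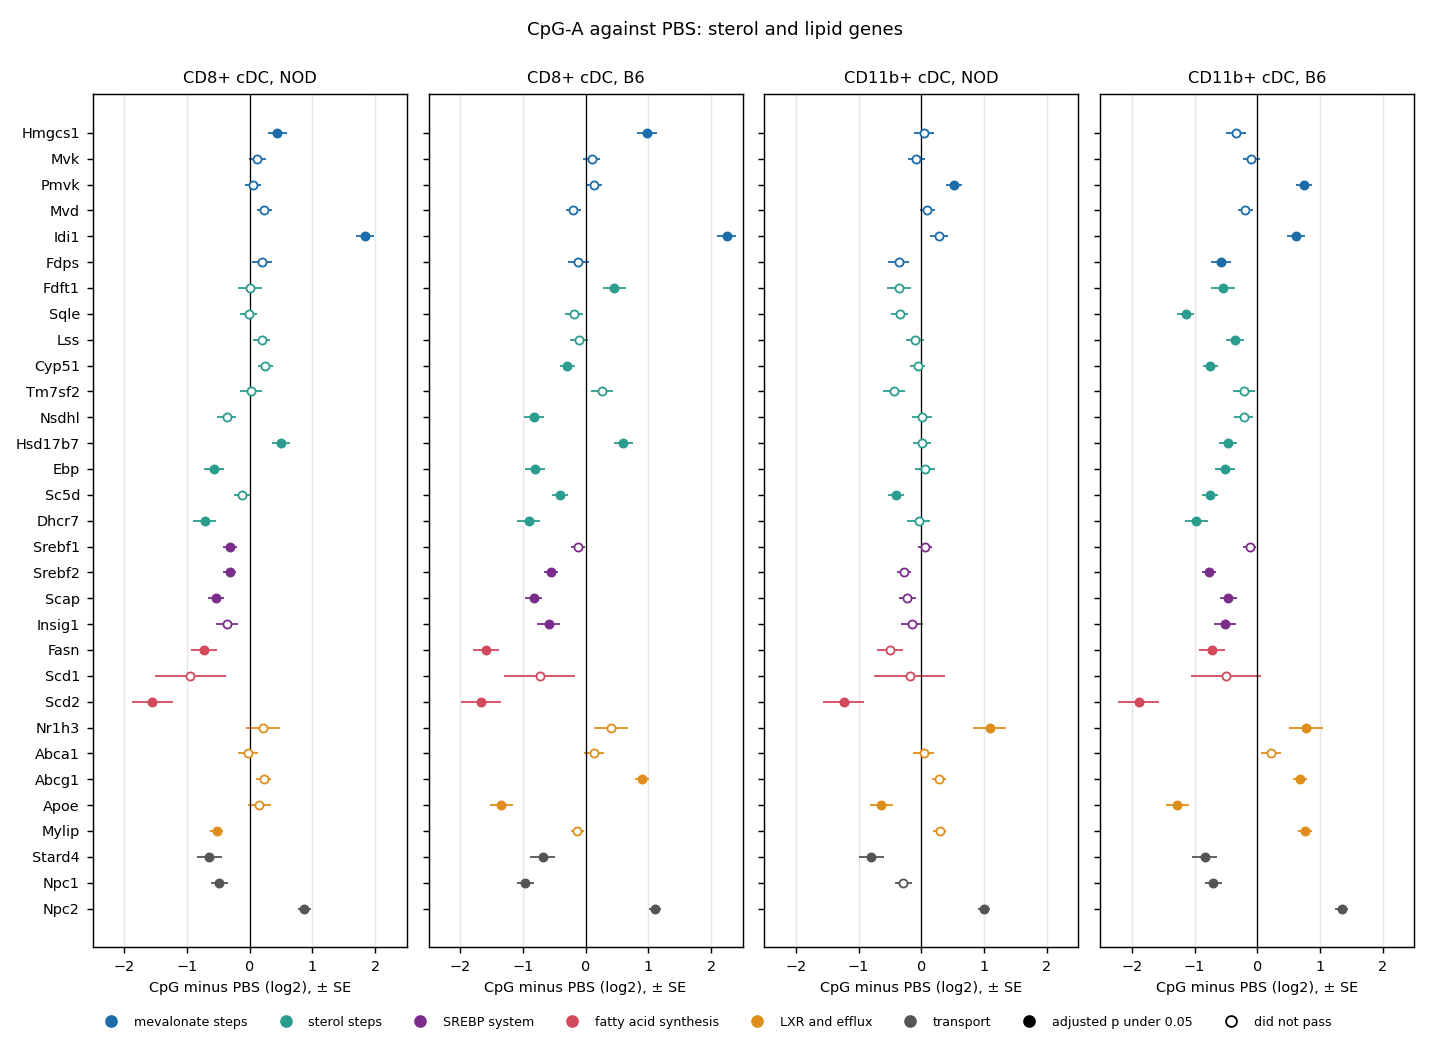
Difference between CpG and PBS (log2, point) with its SE (bar) for the 31 measured genes, one panel for each sorted population and strain, with genes grouped by role (colour). Filled points passed an adjusted p of 0.05. Idi1 lies far to the right in both CD8+ panels, Npc2 lies right and Scd2 left of 0 in all 4.

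Of the genes of the mevalonate steps, Idi1 (isopentenyl-diphosphate isomerase, chromosome 13, 8885606 to 8892396) had the largest rise of any member in CD8+ cDC. Its level in CD8+ cDC of NOD mice was 7.88, 8.47 and 7.91 after CpG and 6.42, 6.07 and 6.26 after PBS. The B6 CD8+ cDC had 10.02, 9.93 and 9.94 after CpG and 7.77, 7.76 and 7.63 after PBS. Every CpG array thus lay above every PBS array of its strain, and the B6 arrays after PBS lay just below the lowest NOD array after CpG. The rise was 1.84 ± 0.14 in NOD mice (3.58-fold, adjusted p = 1.07e-09) and 2.25 ± 0.14 in B6 mice (4.74-fold, adjusted p = 1.63e-11). In CD11b+ cDC Idi1 was 8.12 ± 0.11 after CpG and 7.51 ± 0.15 after PBS in B6 mice (SD, n = 3 each), a rise of 0.61 ± 0.14 (adjusted p = 0.00171). The NOD CD11b+ cDC had 6.89, 7.27 and 7.02 after CpG and 6.59, 6.78 and 6.97 after PBS, which overlap, and the difference of 0.28 ± 0.14 did not pass (adjusted p = 0.230). A second Idi1 probe set averaged 9.52 after CpG and 7.32 after PBS in CD8+ cDC of B6 mice, and 7.60 and 5.79 in those of NOD mice. Whether Idi1 probes also read its near-identical copies was not tested.

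Hmgcs1, the cytosolic HMG-CoA synthase (chromosome 13, 119690351 to 119708260), also rose in CD8+ cDC. In B6 mice its level was 9.03, 8.97 and 8.91 after CpG and 8.21, 7.93 and 7.85 after PBS, with no overlap (0.98 ± 0.16, adjusted p = 1.54e-05). In NOD mice it was 7.64, 7.90 and 7.84 after CpG and 7.39, 7.27 and 7.39 after PBS, also without overlap (0.44 ± 0.16, adjusted p = 0.0286). That second call ended under 5 of the alternatives, with an adjusted p of up to 0.0903. In CD11b+ cDC the differences were 0.05 in NOD mice and -0.34 in B6 mice, and neither passed. Pmvk, phosphomevalonate kinase, had the reverse order of populations. It rose in CD11b+ cDC, by 0.52 ± 0.13 in NOD mice (adjusted p = 0.00555) and by 0.74 ± 0.13 in B6 mice (adjusted p = 5.6e-05), while in CD8+ cDC its differences were 0.06 and 0.13 and did not pass. Fdps, which makes farnesyl pyrophosphate, fell in CD11b+ cDC of B6 mice (-0.58 ± 0.16, adjusted p = 0.00664), and that call ended without replicate 2 after CpG (adjusted p = 0.0523). Mvk and Mvd, which act on mevalonate and its phosphorylated products, ranged from -0.20 to 0.23 over the 4 comparisons and did not pass.

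Of the 10 genes of the sterol steps, which turn farnesyl pyrophosphate through squalene and lanosterol into cholesterol, 8 fell in CD11b+ cDC of B6 mice (80%, against 38.6% of all genes, 22.9% lower). In CD8+ cDC of B6 mice 2 of the 10 rose and 5 fell (70%, against 57.2% of all genes), in CD8+ cDC of NOD mice 1 rose and 2 fell (30%, against 40.3%), and in CD11b+ cDC of NOD mice 0 rose and 1 fell (10%, against 15.3%). Sqle, squalene epoxidase, read 6.19, 5.86 and 5.83 after CpG and 7.31, 6.80 and 7.19 after PBS in CD11b+ cDC of B6 mice, 2.21-fold lower (-1.14 ± 0.14, adjusted p = 7.26e-07). Its difference was -0.18 in CD8+ cDC of B6 mice, and -0.02 in CD8+ and -0.35 in CD11b+ cDC of NOD mice, none of which passed. Cyp51, the lanosterol demethylase, had 7.16, 6.95 and 7.18 after CpG and 7.97, 7.63 and 7.94 after PBS in CD11b+ cDC of B6 mice, again without overlap (-0.75 ± 0.12, adjusted p = 2.08e-05). Its call in CD8+ cDC of B6 mice (-0.29 ± 0.12, adjusted p = 0.0407) ended under 8 alternatives. Sc5d, a desaturase late in the pathway, fell by 0.76 ± 0.13 in CD11b+ cDC of B6 mice (adjusted p = 6.02e-05). Its other calls, -0.41 in CD8+ cDC of B6 mice and -0.41 in CD11b+ cDC of NOD mice, ended under 2 and 7 alternatives, and the first of them read -0.16 with arrays centred on the tested genes.

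Dhcr7, which makes cholesterol from its last precursor, fell in 3 of the 4 comparisons. It read 5.81, 6.25 and 6.10 after CpG and 7.16, 6.90 and 7.03 after PBS in CD11b+ cDC of B6 mice (-0.97 ± 0.18, adjusted p = 0.000189). In CD8+ cDC it read 5.95, 6.34 and 6.10 after CpG and 6.95, 7.15 and 7.0 after PBS in B6 mice (-0.90 ± 0.18, adjusted p = 0.000217), and 5.76, 6.50 and 6.70 after CpG and 6.85, 7.24 and 7.02 after PBS in NOD mice (-0.71 ± 0.18, adjusted p = 0.00356). All 3 pairs of groups were separate, although the NOD gap rests in part on replicate 1 after CpG, without which it was -0.43 (adjusted p = 0.0417), and its call ended when only the groups compared were fitted (adjusted p = 0.0565). Dhcr7 in NOD CD11b+ cDC read 6.72, 7.12 and 7.15 after CpG and 6.90, 7.08 and 7.15 after PBS, a difference of -0.05.

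Ebp, a sterol isomerase, fell in CD8+ cDC, at -0.57 ± 0.16 in NOD mice (adjusted p = 0.00709) and -0.81 ± 0.16 in B6 mice (adjusted p = 0.000176). Nsdhl, which works on the methyl groups of lanosterol derivatives, fell by 0.83 ± 0.16 in CD8+ cDC of B6 mice (adjusted p = 0.000105). Its NOD difference there was -0.37 ± 0.16 (adjusted p = 0.0671), and with the replicate number as a block it passed (adjusted p = 0.0380). Hsd17b7, the ketosteroid reductase of the same step, went the other way in CD8+ cDC. It read 6.72, 6.80 and 6.80 after CpG and 6.29, 6.14 and 6.40 after PBS in NOD mice (0.50 ± 0.15, adjusted p = 0.00870), and 7.10, 7.14 and 7.07 after CpG and 6.62, 6.72 and 6.15 after PBS in B6 mice (0.60 ± 0.15, adjusted p = 0.00111). Thus within CD8+ cDC genes of 1 pathway moved in both directions. In CD11b+ cDC of B6 mice Ebp, Fdft1 (squalene synthase), Hsd17b7 and Lss (lanosterol synthase) were also called lower, at -0.52, -0.54, -0.47 and -0.36, and each of these calls ended under between 2 and 8 alternatives. The Fdft1 call in CD8+ cDC of B6 mice, higher by 0.46 ± 0.19 (adjusted p = 0.0423), ended under 9, among them averaging its probe sets. The second Fdft1 probe set averaged 7.70 after CpG and 7.45 after PBS there, and 6.88 and 7.49 in CD11b+ cDC of B6 mice. Tm7sf2, a sterol reductase, had differences between -0.44 and 0.26, and its value in CD11b+ cDC of NOD mice passed only with the replicate block (adjusted p = 0.0487).

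The genes of the SREBP system fell where they were called. Srebf2, which encodes the SREBP of sterol synthesis, read 8.78, 8.64 and 8.95 after CpG and 9.60, 9.44 and 9.64 after PBS in CD11b+ cDC of B6 mice (-0.77 ± 0.11, adjusted p = 6.33e-06). The B6 CD8+ cDC had 8.69, 8.66 and 8.96 after CpG and 9.29, 9.34 and 9.30 after PBS (-0.54 ± 0.11, adjusted p = 0.000219). Both gaps were wider than the spread within the groups. In NOD mice it fell by 0.32 ± 0.11 in CD8+ cDC (adjusted p = 0.0252), a call that ended under 6 alternatives, and its difference of -0.27 in CD11b+ cDC passed only with the replicate block (adjusted p = 0.0456). Scap, the escort protein, fell in CD8+ cDC, at -0.54 ± 0.13 in NOD mice (adjusted p = 0.00281, and 0.0707 when only the groups compared were fitted) and -0.83 ± 0.13 in B6 mice (adjusted p = 1.53e-05). It fell by 0.46 ± 0.13 in B6 CD11b+ cDC (adjusted p = 0.00865). Insig1, the retention protein and itself a target of SREBP, fell in B6 mice, at -0.59 ± 0.18 in CD8+ and -0.51 ± 0.18 in CD11b+ cDC (adjusted p = 0.00756 and 0.0268), and these calls ended under 2 and 4 alternatives, among them centring on the tested genes. Its difference of -0.36 in CD8+ cDC of NOD mice passed with the replicate block (adjusted p = 0.0382) and not without it (adjusted p = 0.117). Srebf1, the SREBP of fatty acid synthesis, had 1 call, -0.31 ± 0.11 in CD8+ cDC of NOD mice (adjusted p = 0.0304), which ended under 8 alternatives.

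Among the fatty acid genes Scd2, a stearoyl-CoA desaturase (chromosome 19, 44293676 to 44306864), fell in every population. It read 6.31, 8.07 and 8.04 after CpG and 8.74, 8.96 and 9.37 after PBS in CD8+ cDC of NOD mice (-1.55 ± 0.32, adjusted p = 0.000584). B6 CD8+ cDC had 6.39, 6.59 and 7.04 after CpG and 8.24, 8.28 and 8.48 after PBS (-1.67 ± 0.32, adjusted p = 0.000135). The NOD value depended on replicate 1 after CpG, the array that stood apart, without which the difference was -0.97 (adjusted p = 0.00306). The NOD CD11b+ cDC had Scd2 levels of 6.99, 7.87 and 7.76 after CpG and 8.74, 8.59 and 9.02 after PBS (-1.24 ± 0.32, adjusted p = 0.00924, and 0.0881 without replicate 1 after CpG). The B6 CD11b+ cDC had 6.37, 6.35 and 6.99 after CpG and 8.55, 8.28 and 8.55 after PBS (-1.89 ± 0.32, adjusted p = 5.96e-05). In all 4 comparisons the groups were separate, and the largest fold was the last, 3.71-fold lower.

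Fasn, fatty acid synthase (chromosome 11, 120805958 to 120825166), fell 3.01-fold in CD8+ cDC of B6 mice, reading 6.51, 6.29 and 6.89 after CpG and 8.15, 8.04 and 8.27 after PBS (-1.59 ± 0.21, adjusted p = 8.19e-07). NOD CD8+ cDC had 6.77, 7.54 and 7.63 after CpG and 7.75, 8.00 and 8.35 after PBS (-0.72 ± 0.21, adjusted p = 0.00775), groups that nearly touched, and without replicate 1 after CpG the difference was -0.45 (adjusted p = 0.0831). In CD11b+ cDC it fell by 0.73 ± 0.21 in B6 mice (adjusted p = 0.00716), and the difference of -0.50 ± 0.21 in NOD mice did not pass (adjusted p = 0.112). Scd1, the paralog of Scd2, varied most within groups. NOD CD8+ cDC had 7.94, 9.50 and 8.01 after CpG and 9.76, 9.92 and 8.60 after PBS, with an overlap. The largest of the 4 CpG differences of Scd1 was -0.94, in these cells, and none of the 4 passed. Whether the Scd probe sets read each other's transcripts was not tested.

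**Figure D2:**
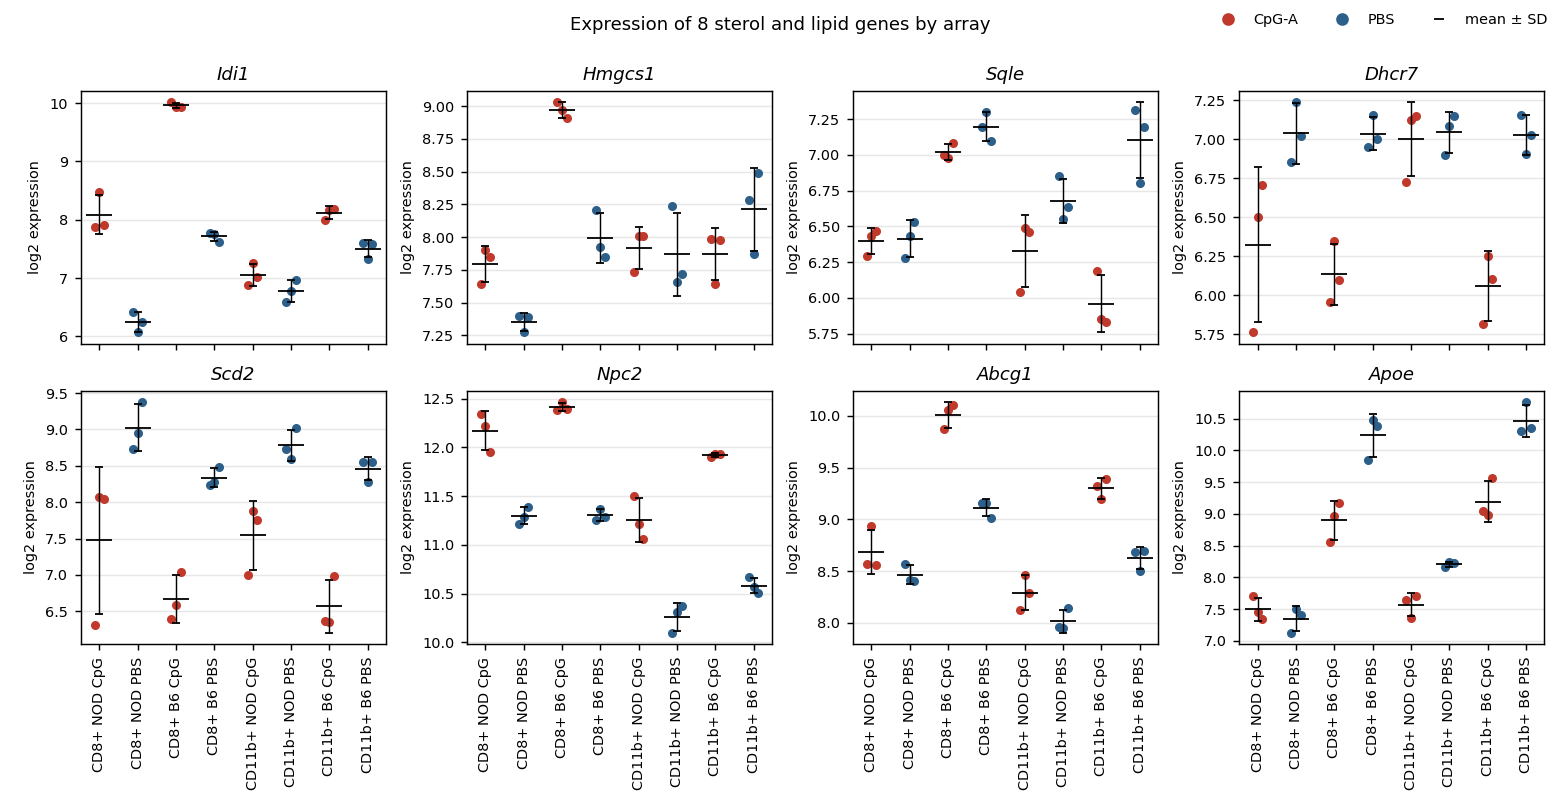
Level on each array (log2, points) of 8 genes in the 8 groups, with horizontal bars at the group means and error bars of 1 SD (n = 3); CpG stands left of PBS within each strain and population. Idi1 is highest in CD8+ cDC of B6 mice after CpG, at 9.93 to 10.02, and Apoe is highest in the B6 groups after PBS.

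The LXR and efflux genes did not move together. Abcg1, which exports cholesterol to high-density lipoprotein, rose in B6 mice. It read 9.87, 10.05 and 10.10 after CpG and 9.16, 9.16 and 9.02 after PBS in CD8+ cDC (0.90 ± 0.11, adjusted p = 6.34e-07), and 9.32, 9.19 and 9.39 after CpG and 8.68, 8.50 and 8.69 after PBS in CD11b+ cDC (0.67 ± 0.11, adjusted p = 5.17e-05). In NOD mice its differences of 0.22 in CD8+ and 0.28 in CD11b+ cDC did not pass (adjusted p = 0.128 and 0.114). Nr1h3, which encodes LXR alpha, rose in CD11b+ cDC of NOD mice, where it read 6.93, 6.66 and 6.90 after CpG and 5.58, 5.75 and 5.92 after PBS (1.08 ± 0.27, adjusted p = 0.00603). Its call in CD11b+ cDC of B6 mice (0.78 ± 0.27, adjusted p = 0.0250) rests on arrays at 6.34, 7.22 and 7.55 after CpG, against 6.31, 6.26 and 6.21 after PBS, and ended under 5 alternatives. Abca1, the other efflux pump, stayed within 5.21 and 6.02 on all 24 arrays and passed in no comparison of the study.

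Apoe, the apolipoprotein that carries exported cholesterol, fell in 3 of the 4 populations. It read 8.56, 8.96 and 9.17 after CpG and 9.85, 10.48 and 10.39 after PBS in CD8+ cDC of B6 mice (-1.34 ± 0.18, adjusted p = 1.66e-06), and 9.04, 8.98 and 9.56 after CpG and 10.31, 10.76 and 10.35 after PBS in their CD11b+ cDC (-1.28 ± 0.18, adjusted p = 6.36e-06). It fell by 0.64 ± 0.18 in NOD CD11b+ cDC (adjusted p = 0.0181), and that call ended under 3 alternatives. Apoe in NOD CD8+ cDC read 7.70, 7.45 and 7.35 after CpG and 7.13, 7.50 and 7.40 after PBS, which overlap. Mylip (IDOL), a ubiquitin ligase and LXR target, rose in CD11b+ cDC of B6 mice and fell in CD8+ cDC of NOD mice. Its levels were 8.50, 8.50 and 8.52 after CpG and 7.75, 7.75 and 7.75 after PBS in the first (0.76 ± 0.11, adjusted p = 4.86e-06), and 7.88, 7.99 and 7.95 after CpG and 8.61, 8.43 and 8.36 after PBS in the second (-0.53 ± 0.11, adjusted p = 0.000424).

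Of the lysosomal pair, Npc2 rose and Npc1 fell. Npc2, the soluble sterol carrier of the lysosome (chromosome 12, 84754559 to 84773112), had 12.34, 12.22 and 11.95 after CpG and 11.22, 11.29 and 11.39 after PBS in CD8+ cDC of NOD mice (0.87 ± 0.10, adjusted p = 3.48e-07). The B6 CD11b+ cDC had 11.90, 11.93 and 11.94 after CpG and 10.67, 10.56 and 10.51 after PBS, the largest of its 4 rises (1.34 ± 0.10, 2.53-fold, adjusted p = 2.47e-10). The rises in CD8+ cDC of B6 mice (1.11 ± 0.10, adjusted p = 3.46e-09) and CD11b+ cDC of NOD mice (1.00 ± 0.10, adjusted p = 5.55e-08) lay between them, and all 4 passed under every alternative. Npc1, the membrane protein that takes sterol over from Npc2, had 7.89, 8.01 and 8.06 after CpG and 8.68, 8.58 and 8.80 after PBS in CD11b+ cDC of B6 mice (-0.70 ± 0.13, adjusted p = 0.000228). It had 6.69, 6.89 and 7.15 after CpG and 7.69, 7.94 and 7.97 after PBS in CD8+ cDC of B6 mice (-0.96 ± 0.13, adjusted p = 2.54e-06). It fell by 0.49 ± 0.13 in CD8+ cDC of NOD mice (adjusted p = 0.00624, and 0.0673 when only the groups compared were fitted), and its difference of -0.29 in CD11b+ cDC of NOD mice did not pass. Stard4, a soluble sterol carrier of the cytosol, fell in all 4, at -0.64 ± 0.20 in CD8+ cDC of NOD mice, -0.68 ± 0.20 in CD8+ cDC of B6 mice, -0.80 ± 0.20 in CD11b+ cDC of NOD mice and -0.84 ± 0.20 in CD11b+ cDC of B6 mice (adjusted p = 0.0124, 0.00507, 0.00597 and 0.00154). Only the last of these calls held under every alternative: centring on the tested genes ended both CD8+ calls, and leaving out replicate 1 after CpG ended that of CD11b+ cDC of NOD mice (adjusted p = 0.0769).

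The 2 sorted populations of B6 mice differed in their CpG response for 7 members, tested as the CD8+ difference minus the CD11b+ difference. That is 22.6% of 31, 5 higher and 2 lower, against 13.2% of all genes, 5.79% higher and 7.43% lower. With CD8+ and CD11b+ values side by side, Idi1 moved by 2.25 and 0.61, Hmgcs1 by 0.98 and -0.34, Hsd17b7 by 0.60 and -0.47, Sqle by -0.18 and -1.14, and Fdft1 by 0.46 and -0.54. These 5 synthesis genes were thus higher, relative to PBS, in CD8+ than in CD11b+ cDC, by 1.63 ± 0.20 for Idi1 (adjusted p = 9.8e-06), 1.32 ± 0.22 for Hmgcs1 (adjusted p = 0.000316), 1.08 ± 0.21 for Hsd17b7 (adjusted p = 0.000974), 0.96 ± 0.20 for Sqle (adjusted p = 0.00198) and 1.01 ± 0.27 for Fdft1 (adjusted p = 0.0148, and 0.0520 without replicate 1 of CD11b+ cDC after PBS). Mylip, at -0.13 and 0.76, differed by -0.89 ± 0.15 (adjusted p = 0.000316), and Pmvk, at 0.13 and 0.74, by -0.61 ± 0.18 (adjusted p = 0.0265), a call that ended under 6 alternatives. Pmvk is a synthesis gene too. Fasn (-0.86, adjusted p = 0.0524), Nsdhl (-0.61, adjusted p = 0.0742) and Cyp51 (0.46, adjusted p = 0.0702) did not pass in this test, and passed with the replicate block. Whether arrays of the same number deviated together was not assessed for this test. In CpG against PBS of B6 mice their correlations were 0.058 to 0.182 in CD8+ and -0.109 to 0.137 in CD11b+ cDC.

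In NOD mice 2 members differed in the same test, 1 higher and 1 lower (6.45% of 31), against 6.75% of all genes, 2.67% higher and 4.08% lower. Idi1 differed by 1.56 ± 0.20 (adjusted p = 5.3e-05) and Mylip by -0.81 ± 0.15 (adjusted p = 0.00179). The replicate block added Apoe and Dhcr7. Apoe moved by 0.15 in CD8+ and -0.64 in CD11b+ cDC, a difference of 0.79 (adjusted p = 0.0686 without the block and 0.0361 with it), and Dhcr7 differed by -0.67 (adjusted p = 0.129 and 0.0436). Centring on the tested genes gave 7 members higher and 2 lower in B6 mice (991 and 709 of all genes, against 658 and 844 as deposited) and 2 and 1 in NOD mice (445 and 347, against 303 and 464), and moved the median of all genes by 0.13 in each strain. The NK gene level after CpG was 5.78 to 6.16 in CD8+ cDC of B6 mice, against 9.51 to 10.6 in their CD11b+ cDC, and its part in these differences was not tested. All 6 NK genes had a lower CpG response in CD8+ than in CD11b+ cDC of B6 mice by the same test, and 2 of 6 did in NOD mice.

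**Figure D3:**
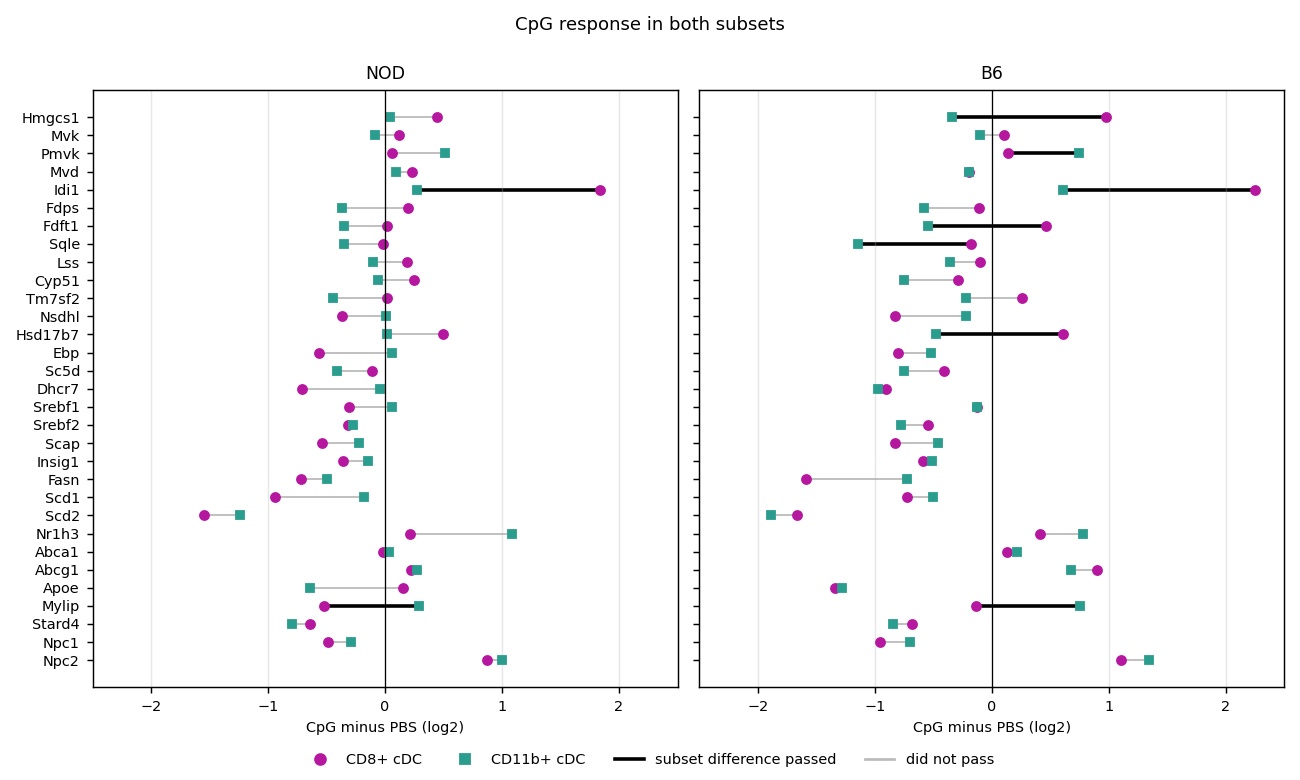
Difference between CpG and PBS (log2, horizontal axis) of each of the 31 genes in CD8+ cDC (circle) and CD11b+ cDC (square), joined by a line, NOD left and B6 right; thick black lines mark genes whose difference between the populations passed an adjusted p of 0.05. The circle of Idi1 lies far right of its square in both strains, at 1.84 and 0.28 in NOD mice and 2.25 and 0.61 in B6 mice.

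NOD and B6 cells differed most steadily in 3 members: Apoe, Idi1 and Abcg1 were lower in NOD mice in both populations after CpG and after PBS. In CD8+ cDC after PBS 1 member was higher and 7 were lower (25.8% of 31), against 3.61% of all genes, 2.02% higher and 1.58% lower. In CD8+ cDC after CpG 5 were higher and 7 lower (38.7%), against 19.9% of all genes, 12.2% higher and 7.74% lower. This comparison moved with the arrays used: fitting only its 2 groups called 0 members higher and 6 lower and 3.46% of all genes, and leaving out single arrays called 2 to 9 members higher, 6 to 8 lower and 9.78% to 34.8% of all genes, the highest share without replicate 1 of NOD after CpG and the lowest without its replicate 3. In CD11b+ cDC after PBS 0 were higher and 3 lower (9.68%), against 5.55% of all genes, 2.39% higher and 3.16% lower. In CD11b+ cDC after CpG 7 were higher and 6 lower (41.9%), against 22.9% of all genes, 13.7% higher and 9.12% lower. Centring on the tested genes gave 5 higher and 11 lower in CD8+ cDC after CpG (943 and 1442 of all genes, against 1385 and 880 as deposited) and 6 and 6 in CD11b+ cDC after CpG (1276 and 1362, against 1561 and 1036). The comparisons after CpG and after PBS share no arrays, but those of strain and of CpG do, so their values are given side by side.

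Apoe had the largest strain difference of the members in 3 of the 4 comparisons. After PBS it read 7.13, 7.50 and 7.40 in NOD and 9.85, 10.48 and 10.39 in B6 CD8+ cDC, 7.43-fold lower in NOD mice (-2.89 ± 0.18, adjusted p = 2.18e-10). In CD11b+ cDC it read 8.17, 8.24 and 8.22 in NOD and 10.31, 10.76 and 10.35 in B6 mice after PBS (-2.26 ± 0.18, adjusted p = 9.51e-09). All NOD arrays were below all B6 arrays. After CpG the gap was -1.40 ± 0.18 in CD8+ (adjusted p = 9.5e-06) and -1.62 ± 0.18 in CD11b+ cDC (adjusted p = 6.68e-07). Macrophages also make Apoe, and 12 red pulp macrophage genes averaged 6.38 to 6.75 in NOD and 6.54 to 7.95 in B6 CD8+ cDC after PBS, and 7.02 to 7.16 in NOD and 7.68 to 8.55 in B6 CD11b+ cDC. Of the 11 of these that were tested, 5 were lower in NOD CD11b+ cDC after PBS and 0 in NOD CD8+ cDC after PBS. Their part in the Apoe difference was not tested.

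The NOD minus B6 difference of Idi1 was -1.47 ± 0.14 in CD8+ cDC after PBS (adjusted p = 3.55e-07) and -1.87 ± 0.14 after CpG (adjusted p = 2.82e-09). In CD11b+ cDC the differences were -0.73 ± 0.14 after PBS (adjusted p = 0.00228) and -1.06 ± 0.14 after CpG (adjusted p = 8.8e-06). The second Idi1 probe set averaged 5.79 in NOD and 7.32 in B6 CD8+ cDC after PBS, the same direction. Abcg1 after PBS read 8.57, 8.41 and 8.41 in NOD and 9.16, 9.16 and 9.02 in B6 CD8+ cDC (-0.65 ± 0.11, adjusted p = 0.000892), and 7.96, 7.95 and 8.14 in NOD and 8.68, 8.50 and 8.69 in B6 CD11b+ cDC (-0.61 ± 0.11, adjusted p = 0.00116). After CpG its differences were -1.32 ± 0.11 (adjusted p = 1.94e-08) and -1.01 ± 0.11 (adjusted p = 6.68e-07). Whether sequence differences between the strains affect the probes of these genes was not tested.

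Other synthesis genes were lower in NOD than in B6 CD8+ cDC already after PBS. Markers of other cell types moved with this strain difference. The mean of 4 B cell genes was 8.23 to 9.29 in NOD and 7.22 to 8.13 in B6 CD8+ cDC after PBS, and 7.75 to 9.10 in NOD and 6.48 to 7.51 in B6 CD8+ cDC after CpG. Those groups were separate, and 1 of the 4 genes was called higher in NOD mice after PBS and 2 after CpG. In CD11b+ cDC the B cell ranges of the strains overlapped. The mean of 3 genes of plasmacytoid dendritic cells was 6.73 to 7.53 in NOD and 6.21 to 6.46 in B6 CD8+ cDC after CpG, and 7.38 to 7.54 in NOD and 7.27 to 7.31 in B6 CD8+ cDC after PBS, with 2 of the 3 called higher in NOD mice after CpG and 0 after PBS. The part of these cells in the strain differences of CD8+ cDC was not tested. Cyp51 read 7.19, 6.91 and 7.02 in NOD and 7.93, 7.87 and 7.91 in B6 mice (-0.86 ± 0.12, adjusted p = 3.51e-05), and Sqle read 6.28, 6.43 and 6.53 in NOD and 7.19, 7.30 and 7.10 in B6 mice (-0.78 ± 0.14, adjusted p = 0.00108). Sc5d was lower too (-0.60 ± 0.13, adjusted p = 0.00693), as was Hmgcs1 (-0.64 ± 0.16, adjusted p = 0.0193), whose call ended under 3 alternatives. Mvd, at -0.38 ± 0.12, passed with the replicate block (adjusted p = 0.0457) and not without it (adjusted p = 0.0920). Mylip was the member higher in NOD CD8+ cDC after PBS, at 8.61, 8.43 and 8.36 against 7.57, 7.82 and 7.43 in B6 mice (0.86 ± 0.11, adjusted p = 1.03e-05). After CpG, Hmgcs1 (-1.18 ± 0.16, adjusted p = 1.31e-05), Fdft1 (-0.78 ± 0.19, adjusted p = 0.00573) and Sqle (-0.62 ± 0.14, adjusted p = 0.00326) were lower in NOD CD8+ cDC. Fasn, Mylip, Npc1, Nsdhl and Scd1 were called higher there, by 0.46 to 1.76, and Pmvk lower (-0.36), and each of these 6 calls ended under at least 1 alternative. Cyp51, at -0.33 ± 0.12 (adjusted p = 0.0527), and Scd2, at 0.80 ± 0.32 (adjusted p = 0.0845), passed there with the replicate block (adjusted p = 0.0364 and 0.0218).

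In CD11b+ cDC after CpG several synthesis genes were higher in NOD than in B6 mice. Dhcr7 read 6.72, 7.12 and 7.15 in NOD and 5.81, 6.25 and 6.10 in B6 mice (0.94 ± 0.18, adjusted p = 0.00056), and Cyp51 read 7.56, 7.73 and 7.87 in NOD and 7.16, 6.95 and 7.18 in B6 mice (0.62 ± 0.12, adjusted p = 0.000423). Srebf2 was higher by 0.61 ± 0.11 (adjusted p = 0.000258) and Npc1 by 0.60 ± 0.13 (adjusted p = 0.00218). Npc2, Pmvk and Mylip were lower in NOD mice, at -0.66, -0.52 and -0.43 (adjusted p = 2.68e-05, 0.00423 and 0.00486). The calls of Ebp (0.49), Scap (0.38) and Scd2 (0.97) ended under 4, 8 and 4 alternatives. All 6 NK genes were lower in NOD than in B6 CD11b+ cDC after CpG, with a median difference of -3.78, and their part in these values was not tested. Scd1 had the widest spread among the strain differences. It read 9.76, 9.92 and 8.60 in NOD and 7.23, 8.18 and 6.94 in B6 CD8+ cDC after PBS, with no overlap, and the difference of 1.97 ± 0.57 missed the threshold (adjusted p = 0.0539) but passed with the replicate block (adjusted p = 0.00368).

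**Figure D4:**
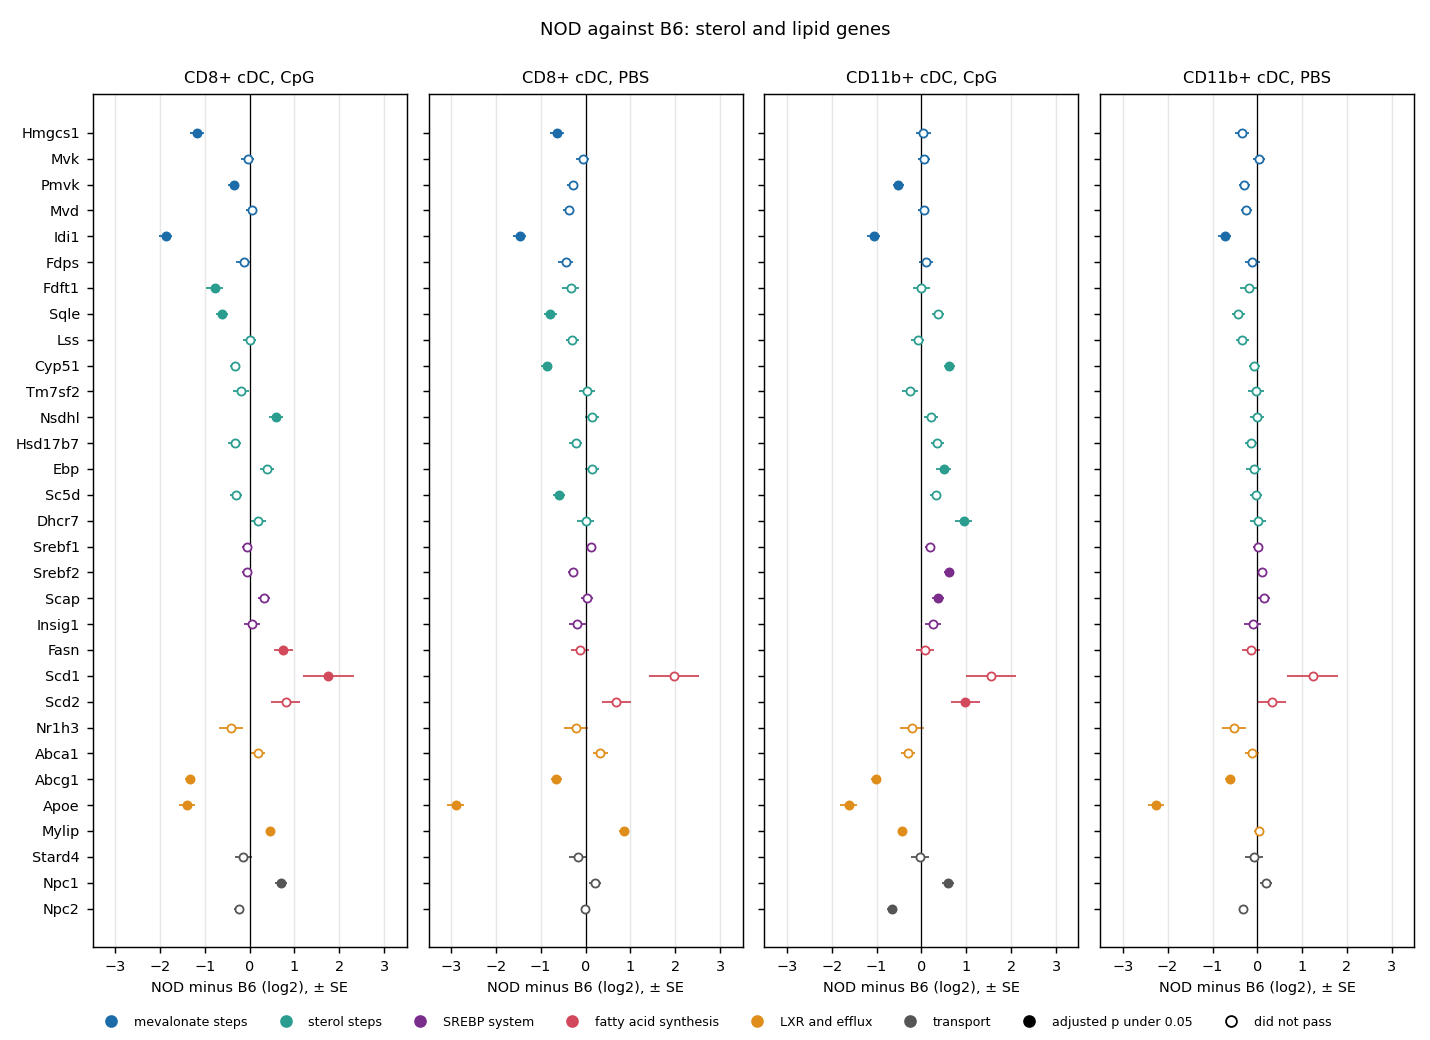
Difference between NOD and B6 mice (log2, point) with its SE (bar) for the 31 genes, in each population after CpG and after PBS. Filled points passed an adjusted p of 0.05. Apoe, Idi1 and Abcg1 lie left of 0 in all 4 panels, with Apoe at -2.89 in CD8+ cDC after PBS.

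The strains differed in the CpG response itself, tested as the NOD difference minus the B6 difference, for 2 members in CD8+ and 3 in CD11b+ cDC. In CD8+ cDC 1 was higher and 1 lower (6.45% of 31), against 3.97% of all genes, 1.72% higher and 2.25% lower. Without replicate 1 of NOD CD8+ cDC after CpG, 5 members were higher and 1 lower there, and 18.2% of all genes were called, 1485 higher and 578 lower; with only the groups compared 1 member was higher, 0 were lower, and 1.43% of all genes were called. In CD11b+ cDC 3 were higher and 0 lower (9.68%), against 4.34% of all genes, 2.38% higher and 1.95% lower. In CD8+ cDC Apoe moved by 0.15 in NOD and -1.34 in B6 mice, which differ by 1.50 ± 0.26 (adjusted p = 0.00131), and this held under every alternative. Abcg1 moved by 0.22 in NOD and 0.90 in B6 mice, which differ by -0.68 ± 0.16 (adjusted p = 0.0182), a call that ended under 6 alternatives. With the replicate block Cyp51 (0.54, adjusted p = 0.0462) and Fasn (0.87, adjusted p = 0.0431) passed as well. Whether the numbers pair the arrays was not assessed for this test. In CD11b+ cDC Sqle moved by -0.35 in NOD and -1.14 in B6 mice (0.80 ± 0.20, adjusted p = 0.0215), Cyp51 by -0.06 and -0.75 (0.69 ± 0.17, adjusted p = 0.0175) and Dhcr7 by -0.05 and -0.97 (0.93 ± 0.26, adjusted p = 0.0433). These 3 calls ended under 7, 5 and 13 of 21 alternatives. Centring on the tested genes gave 3 members higher and 1 lower in CD11b+ cDC (222 and 289 of all genes, against 271 and 222 as deposited). The rise of Idi1 differed between strains by -0.41 ± 0.20 in CD8+ (adjusted p = 0.293) and -0.33 ± 0.20 in CD11b+ cDC (adjusted p = 0.422), neither of which passed.

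After PBS the 2 populations differed in 12 members in NOD mice, 4 higher and 8 lower in CD8+ than in CD11b+ cDC (38.7% of 31), against 21.6% of all genes, 10.5% higher and 11.1% lower. In B6 mice 4 differed, 3 higher and 1 lower (12.9%), against 21.6% of all genes, 9.46% higher and 12.1% lower. Npc2 was higher in CD8+ cDC, by 1.04 ± 0.10 in NOD (adjusted p = 2.19e-08) and 0.73 ± 0.10 in B6 mice (adjusted p = 5.07e-06). Npc1, its membrane partner, was lower, at -0.78 ± 0.13 in NOD (adjusted p = 9.83e-05) and -0.82 ± 0.13 in B6 mice (adjusted p = 6.09e-05). Abcg1 was higher by 0.45 in NOD and 0.48 in B6 mice (adjusted p = 0.00523 and 0.00284). Nsdhl was higher by 0.69 in NOD and 0.54 in B6 mice (adjusted p = 0.00180 and 0.0135), the second of which ended without replicate 1 of B6 CD8+ cDC. In NOD mice CD8+ cDC were also lower in Apoe (-0.86), Cyp51 (-0.74) and Srebf2 (-0.64) and higher in Mylip (0.68), with adjusted p of 0.00103, 3.95e-05, 0.000114 and 3.29e-05. The calls of Hmgcs1 (-0.52), Idi1 (-0.53), Mvd (-0.37) and Sc5d (-0.41) in NOD mice ended under 2 to 6 alternatives. With the replicate block Scd1 passed in NOD mice (1.45 ± 0.57, adjusted p = 0.0712 without the block and 0.00953 with it) and Nr1h3 in B6 mice (-0.70 ± 0.27, adjusted p = 0.0673 and 0.0300).

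Genes of the same pathways outside the 33 also fell with CpG in 3 of the 4 comparisons more often than they rose. Of 17 tested genes of sterol and lipid synthesis, 1 rose and 8 fell in CD8+ cDC of NOD mice, 1 and 11 in CD8+ cDC of B6 mice, 1 and 1 in CD11b+ cDC of NOD mice, and 1 and 8 in CD11b+ cDC of B6 mice. These are 52.9%, 70.6%, 11.8% and 52.9% of the 17, against 40.3%, 57.2%, 15.3% and 38.6% of all genes. Over all genes lower calls also outnumbered higher ones, except in CD11b+ cDC of NOD mice. Acaca, the acetyl-CoA carboxylase that feeds fatty acid synthase, fell in all 4, at -0.62 in NOD and -1.15 in B6 CD8+ cDC and -0.51 in NOD and -0.95 in B6 CD11b+ cDC. Lpin1, a phosphatidate phosphatase, fell in CD8+ cDC (-1.38 in NOD and -1.87 in B6 mice), as did Fads1, a fatty acid desaturase (-1.28 in NOD and -1.65 in B6 mice). Msmo1, which removes methyl groups from lanosterol derivatives, fell by 0.92 in CD11b+ cDC of B6 mice and had differences of 0.05 and -0.09 in CD8+ cDC of NOD and B6 mice, which did not pass.

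Of 11 tested genes of LXR and efflux outside the 33, 2 rose in each of the 4 comparisons and 4 or 5 fell. The share called was 54.5% in CD8+ cDC of NOD mice (40.3% of all genes), 63.6% in CD8+ cDC of B6 mice (57.2%), 54.5% in CD11b+ cDC of NOD mice (15.3%) and 63.6% in CD11b+ cDC of B6 mice (38.6%). Cd36, a scavenger receptor for oxidised lipoprotein and fatty acids, fell in all 4, at -1.44 in NOD and -2.68 in B6 CD8+ cDC and -1.01 in NOD and -1.35 in B6 CD11b+ cDC. Lipa, the lysosomal lipase that frees cholesterol from its esters, fell in all 4 too, at -1.49 in NOD and -2.03 in B6 CD8+ cDC and -0.68 in NOD and -1.39 in B6 CD11b+ cDC. Scarb1, a receptor for high-density lipoprotein, fell in NOD CD8+ (-0.89), B6 CD8+ (-2.03) and B6 CD11b+ cDC (-1.57) and did not pass in NOD CD11b+ cDC (-0.31). Abca7, a lipid transporter related to Abca1, rose by 0.57 to 0.86 in all 4. Among the genes around oxysterols, Gpr183, the receptor for an oxysterol that guides immune cells, rose by 0.57 in CD11b+ cDC of NOD mice, 0.36 in CD11b+ cDC of B6 mice and 0.78 in CD8+ cDC of B6 mice, and did not pass in CD8+ cDC of NOD mice (0.27). Cyp27a1, which makes 27-hydroxycholesterol, fell in NOD CD8+ (-0.81), B6 CD8+ (-0.96) and B6 CD11b+ cDC (-0.77), and its difference in NOD CD11b+ cDC (-0.12) did not pass. Ch25h, which makes 25-hydroxycholesterol, did not pass the filter on dim signals and was not tested. It averaged 4.70 after CpG and 4.09 after PBS in NOD CD8+ cDC, and 5.04 after CpG and 4.31 after PBS in B6 CD8+ cDC, below the array medians of 5.75 to 5.85.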

How the data were processed

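Gene expression was measured on 24 arrays of sorted spleen cDC, 8 groups of 3. The log2 expression values deposited by the authors came from RMA and Partek, the tools (without versions) in the submitters' processing notes, and lay between 1.92 and 14.1 over 35556 probe sets. The array model is not settled here, because the labels name another one than the platform annotation whose identifiers the probe sets carry. That annotation listed 23410 probe sets, 21789 with a single symbol, which were updated by gene ID through RefSeq (GRCm38.p6).

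The deposited values were not normalized further. limma 3.58.1 in R 4.3.3 fitted a mean per group over all 24 arrays (16 residual degrees of freedom, eBayes with a trend), with 14 contrasts, Benjamini-Hochberg adjustment within each and a threshold of 0.05. The fit was tested on simulated data. With 3 arrays a group the number of arrays limits the precision. Every member may be named, and genes outside the 33 only from lists of related genes and cell markers, up to 4 called genes and 2 uncalled ones a list. The members and lists were chosen with earlier results of these data known.

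The titles number the replicates 1 to 3 in every group. Arrays of the same number deviated together, with every correlation above 0.1, in CpG against PBS of NOD CD8+ (0.177 to 0.336) and CD11b+ cDC (0.153 to 0.213), in NOD against B6 CD8+ cDC after PBS (0.197 to 0.288) and CpG (0.242 to 0.546), and in CD8+ against CD11b+ cDC of B6 (0.133 to 0.273) and NOD mice (0.103 to 0.177). There a value with the replicate block is given where it changes a call. Block values are also given for tests of a difference between responses, for which such pairing was not assessed.

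Alternatives tried were quantile normalization, centring on the median of all probe sets or of the tested genes, no filter or one of 12 arrays, averaging the probe sets of a gene, no trend, only the groups compared, the replicate block, and leaving out each array.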

Additional observations from a re-analysis of the deposited data

Results flagged for a closer look

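The CpG response differed by subset or by strain, by a test of the difference itself, for 11 of the 31 measured genes. That count takes in any gene called in at least 1 of 4 tests, and was not made over all genes. Of all genes, the subset test called 13.2% in B6 and 6.75% in NOD mice. The strain test called 3.97% in CD8+ and 4.34% in CD11b+ cDC. In B6 mice the response of CD8+ cDC minus that of CD11b+ cDC was 1.63 for Idi1, 1.32 for Hmgcs1, 1.08 for Hsd17b7, 1.01 for Fdft1 and 0.96 for Sqle, all sterol synthesis genes. It was -0.89 for Mylip and -0.61 for Pmvk, a gene of the mevalonate steps and so of sterol synthesis too. In NOD mice the same difference was 1.56 for Idi1 and -0.81 for Mylip. The response of NOD minus that of B6 mice was 1.50 for Apoe and -0.68 for Abcg1 in CD8+ cDC. In CD11b+ cDC it was 0.93 for Dhcr7, 0.80 for Sqle and 0.69 for Cyp51. CD11b+ cDC of B6 mice after CpG, which enter 10 of these 14 differences, are also the group with the highest NK gene level (9.51 to 10.6), and its part was not tested. The other 4 differences, Idi1 and Mylip in NOD mice and Apoe and Abcg1 in CD8+ cDC, do not use that group.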

How the results depend on the processing

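Of the 129 calls of members over the 14 contrasts, 84 passed under every alternative and 45 ended under at least 1, and 0 of 2018 alternative values reversed. Fitting only the groups compared moved the number of members called to 7 in CpG against PBS of NOD CD8+ cDC (14 in the report), 6 in NOD against B6 CD8+ cDC after CpG (12), 5 in NOD against B6 CD11b+ cDC after PBS (3), 8 in CD8+ against CD11b+ cDC of B6 mice after PBS (4) and 1 in the strain difference of the CpG response in CD8+ cDC (2). In that last test centring on the median of all probe sets gave 1, the replicate block gave 4, and leaving out single arrays gave 1 to 6, the highest without replicate 1 of NOD CD8+ cDC after CpG. In CD11b+ cDC the strain difference of the response had 3 called members and 0 to 5 on leaving out single arrays, with 0 without replicate 1 of B6 after PBS. At 3 arrays a group less 1, an adjusted p above the threshold does not show that values did not differ. The subset difference of the response in NOD mice had 2 called members, 4 with the replicate block and 2 to 5 on leaving out single arrays. CpG against PBS of NOD CD11b+ cDC had 7 and, on leaving out single arrays, 4 to 6. The share of all genes called moved too when only the groups compared were fitted, to 22.7% in CpG against PBS of NOD CD8+ cDC (40.3% in the report), 2.67% in the subset difference of the response in NOD mice (6.75%) and 8.32% in the strain difference of the response in CD11b+ cDC (4.34%). For NOD against B6 CD11b+ cDC after PBS and CD8+ against CD11b+ cDC of B6 mice, the share of all genes in such a fit is not given here. It is not given for the replicate block either, nor for every fit that left out an array. Member counts that moved without such a share are therefore not read as a result about the members. The subset share in NOD mice was 14.7% without replicate 3 of NOD CD8+ cDC after CpG. Such fits also use fewer arrays, and the cause of these moves was not tested.

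Calls over all genes with the replicate number as a block are not given here. The number of such calls among the members is therefore not read as a result about them. With this block, 20 member results passed that had not passed without it. Where the numbers did not pair the arrays these were Scd1 in NOD against B6 CD11b+ cDC after CpG (adjusted p = 0.00608) and Npc2 after PBS (0.0493). Pairing was not assessed for tests of a difference between responses. By subset, the results that passed there only with the block were Apoe and Dhcr7 in NOD mice. In B6 mice they were Cyp51 (0.46, adjusted p = 0.0476), Fasn (-0.86, adjusted p = 0.0210) and Nsdhl (-0.61, adjusted p = 0.0368), of both signs. By strain they were Cyp51 and Fasn in CD8+ cDC and Srebf2 in CD11b+ cDC (0.50, adjusted p = 0.0234). The others are given in the report. Probe sets near background limit Lss, Tm7sf2 and Abca1, which were above the array median on 6, 6 and 4 arrays.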
